A study of Mus musculus with 12 samples.

Results

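The mRNAs of collagens, laminin chains and integrin subunits were followed in mouse neural stem cells (NSCs) by RNA bisulfite sequencing (RNA BS-seq). The genes were taken by symbol alone. Collagens had to read Col, a number, a and a number, laminin chains had to start with Lama, Lamb or Lamc and a number, and integrin subunits had to start with Itga or Itgb followed by a digit, X, V, E or L. Col1a2, Col4a6 and Col16a1 and the Itgb1bp genes, whose products bind an integrin tail, were not included. Of the 16746 genes listed, 60 met this rule, namely 29 collagens, 20 integrin subunits, 9 laminin chains and 2 genes that share only the symbol, Itgb3bp, which encodes a centromere protein, and Itgbl1. A further 19 annotated genes that match the rule were not listed in any library.

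The NSCs came from the subventricular zone of wild-type male C57BL/6 mice aged 6 to 8 weeks and were grown on plates coated with poly-ornithine and laminin, with EGF and bFGF in the medium. Their medium held folic acid for 4 days, at a low (LF, 1.5 μM), a middle (MF, 10 μM) or a high concentration (HF, 80 μM). Poly(A) RNA was taken from whole cells (total RNA; LF, MF, HF) or from the pooled polysome fractions of a sucrose gradient (pLF, pMF, pHF), with biological duplicates of each and 12 libraries in all. How many mice gave the cells is not given in the sources used here. The p-values below thus measure the spread between these duplicates, except those of Fisher's exact test. That test sums the reads of both duplicates and holds counting error only.

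Collagens are secreted proteins of 3 chains wound around each other. Type IV collagen forms the network of basement membranes, and types III, V and XI build fibrils. Laminins join 1 α, 1 β and 1 γ chain and lie in the same basement membranes, and integrins, each of 1 α and 1 β subunit, are the cell surface receptors that bind collagen, laminin and fibronectin. In the subventricular zone, NSCs contact a matrix rich in laminin. All of these proteins are made on ribosomes at the endoplasmic reticulum, and many are encoded by long mRNAs.

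Bisulfite turns an unmethylated cytosine into uracil, which is read as T, so that a C left in the reads is a candidate m5C or a cytosine that was not converted. The deposited lists give, for each cytosine with at least 10 reads and at least 1 unconverted read, the number of reads that cover it (coverage) and the share that were unconverted (level). The lists therefore hold 2 measures of these mRNAs, how deeply each was sequenced and which of its cytosines stayed unconverted. Coverage was summarised per gene as the median over cytosines with a level under 0.05, which is a measure per base and does not grow with transcript length. It was then set on a log2 scale relative to the median gene of the same library. In bulk RNA, fewer cells of a type and less RNA per cell cannot be told apart.

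Of the 60 genes, 30 had such cytosines in all 12 libraries, 18 in 1 to 11 libraries and 12 in none. With at least 10 cytosines required in every library, 25 were tested among 7296 genes, namely 13 collagens, 5 laminin chains and 7 integrin subunits. Col12a1, Col1a1, Col6a2, Itga9 and Lama2 were present in all 12 libraries but fell under that minimum. The mRNAs held between 12078 and 13892 such cytosines in each LF and MF library, 13672 and 15607 in those labelled HF and between 5644 and 8545 in the polysome libraries.

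A total of 3 libraries stood apart. In both libraries labelled HF, the coverage at the sites that the study lists for HF was often lower than in that list, which was not so in any of the other 10 libraries, so their label is in doubt and they are called the libraries labelled HF throughout. Their log2 coverage over genes correlated with that of LF and MF at r = 0.716 to 0.750, against 0.895 to 0.908 among LF and MF. The other was pHF replicate 2, with 38353 cytosines above a level of 0.9 against 1102 to 3465 in the rest. Of 8 NSC markers, 7 were listed in all 12 libraries, Nes at 2.30 to 5.65 times the median gene among them, while Sox2 was not listed. Their summed level was 91.7 to 105 in LF and MF, 83.1 and 85.5 in the libraries labelled HF and 90.1 to 129.5 in the polysome libraries. Of these, Fabp7 was at 15.4 to 27.9 in LF and MF and at 8.20 and 8.76 in the libraries labelled HF, and Olig2 at 2.84 to 3.46 and at 1.65 and 1.48. Of 8 fibroblast and mural cell markers, 5 were listed in any library and 3 in all, with a summed level of 3.09 to 4.02 times the median gene in LF and MF, 9.60 to 10.8 in the libraries labelled HF and 6.63 to 14.7 in the polysome libraries. The 3 listed in all were Acta2, Tagln and Pdgfrb, of which Pdgfrb was at 0.358 to 0.576 times the median gene in LF and MF, 0.867 and 0.947 in the libraries labelled HF and 0.362 to 1.08 in the polysome libraries. Ogn and Lum reached at most 0.0851. Dcn, Rgs5 and Cspg4 were at 0 in every library, which here means that they were not listed, as with Sox2. Summed endothelial markers stayed between 0 and 0.216, microglial markers between 0.122 and 0.941 and oligodendrocyte lineage markers between 0.0886 and 0.641 times the median gene. Astrocyte markers summed to 1.84 to 5.27 and neuron markers to 1.29 to 2.95.

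The cytosines on which the level results turn are shown with 10 bases on each side, read on the mRNA strand from GRCm38 (mm10). The capital C is the measured cytosine. The first 5 are those whose unconverted share was higher in pLF and pMF than in LF and MF. The 4 after them include, in Col23a1, the only isolated collagen site called in both MF libraries.
Col5a2 exon 50, chr1:45382116-45382136, minus strand: gtaggagaagCaggaccagag
Col5a2 exon 45, chr1:45386825-45386845, minus strand: tgttggagaaCgggtaagttg
Lama5 exon 33, chr2:180192449-180192469, minus strand: ctccagttacCtccaagagga
Lamb2 exon 10, chr9:108482538-108482558, plus strand: gccactttgaCatggctgtct
Col4a5 exon 33, chrX:141631327-141631347, plus strand: gaattcctggCaggagtggtg
Col23a1 exon 29, 3′ UTR, chr11:51582286-51582306, plus strand: tgtccccttcCtccaagggca
Lama4 exon 34, chr10:39098356-39098376, plus strand: ccttggcaatCtccagctcaa
Col8a1 exon 4, chr16:57627836-57627856, minus strand: agagcctggcCtccaaggctt
Col6a2 exon 18, chr10:76607122-76607142, minus strand: cctggtgacgCcggacctcga
The Col5a2 cytosine of exon 45 lies 2 bases before the end of that exon, so that the gtaagt after it is the start of the intron in the genome. All but the Col23a1 cytosine lie in coding sequence. Exons are numbered on GENCODE vM21 transcripts.

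The next 5 are cytosines called in both libraries labelled HF, chosen to show the guanines that precede them.
Col11a1 exon 60, chr3:114206360-114206380, plus strand: cccgctagggCatcccaggtc
Itga6 exon 26, 3′ UTR, chr2:71856015-71856035, plus strand: gagaggagggCacaggaaaga
Lamb2 exon 18, chr9:108485535-108485555, plus strand: ttagtgggggCgatgctgctg
Col18a1 exon 42, 3′ UTR, chr10:77052481-77052501, minus strand: tgacatggggCccatcctcag
Col3a1 exon 39, chr1:45340994-45341014, plus strand: agagaaggggCcacctggtgc
In all 5, at least 3 guanines stand directly before the cytosine.

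Among the tested genes, Itgb1, Lamc1 and Col4a1 had the highest coverage in MF of the integrin subunits, laminin chains and collagens. Itgb1, the β subunit shared by most collagen and laminin receptors, had the highest coverage of the 25, with a median of 6701 and 6816 reads in MF and a log2 coverage relative to the median gene of 3.27 and 3.28 in LF and 3.59 and 3.47 in MF. It was followed among the integrins by Itgav, the αv subunit of receptors for vitronectin and fibronectin, at 1728 and 1622 reads in MF, and by its partner Itgb5 at 1658 and 1620 reads. Over the LF and MF libraries, the values of Itgav and those of Itgb5 overlapped each other. Of the other α subunits tested, Itga5, which binds fibronectin, and the laminin receptors Itga6 and Itga3 lay below the median gene, at -0.85, -1.14 and -1.98 in the mean of MF on the same log2 scale. Itga1, a collagen receptor, was at -2.63. Some subunits with too few cytosines to be tested had lower values in MF, among them Itga7 at -4.21 and -4.22. Not all untested subunits were that low, since Itgb8 had 327 and 426.5 reads in MF, at -0.76 and -0.52. It had 315 and 330 cytosines in MF but only 0 to 6 in each polysome library, and so fell under the minimum.

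Among the laminins, the γ chain Lamc1 led with 3316 and 3529 reads in MF, then the β chain Lamb1 with 2440 and 2727 and the α chain Lama5 with 1506 and 1471. Lama4 and Lamb2 were also above the median gene in every LF and MF library. Lama1 had no cytosine under a level of 0.05 in any LF or MF library, and Lama3 had none in any of the 12. They were not measurable at this depth. Lama2 was listed in all 12 libraries at 28.5 to 240 reads.

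Among the collagens, the type IV chain Col4a1 had the highest coverage in MF, 1489 and 1920 reads, followed by its relative Col4a5 with 1216 and 1341 and the fibrillar type V chain Col5a2 with 1151 and 1371. The last 2 overlapped. Col4a2, which pairs with Col4a1 in the same trimer, was covered by only 368 and 284 reads, a log2 level of -0.85 against 1.53 for Col4a1 in the mean of MF. The fibrillar chains Col5a1 and Col11a1, the microfibrillar Col6a1 and the transmembrane Col23a1 had log2 levels between -0.91 and 0.59 in the mean of MF. Col3a1, a fibrillar collagen of connective tissue, was among the least covered at 114 and 110 reads, and Col1a1, the main collagen of bone and skin, had at most 104 reads in any library. Itgb1, Lamc1 and Lamb1 led, in that order, in each LF and MF library, as the heat map of log2 coverage shows.

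**Figure D1:**
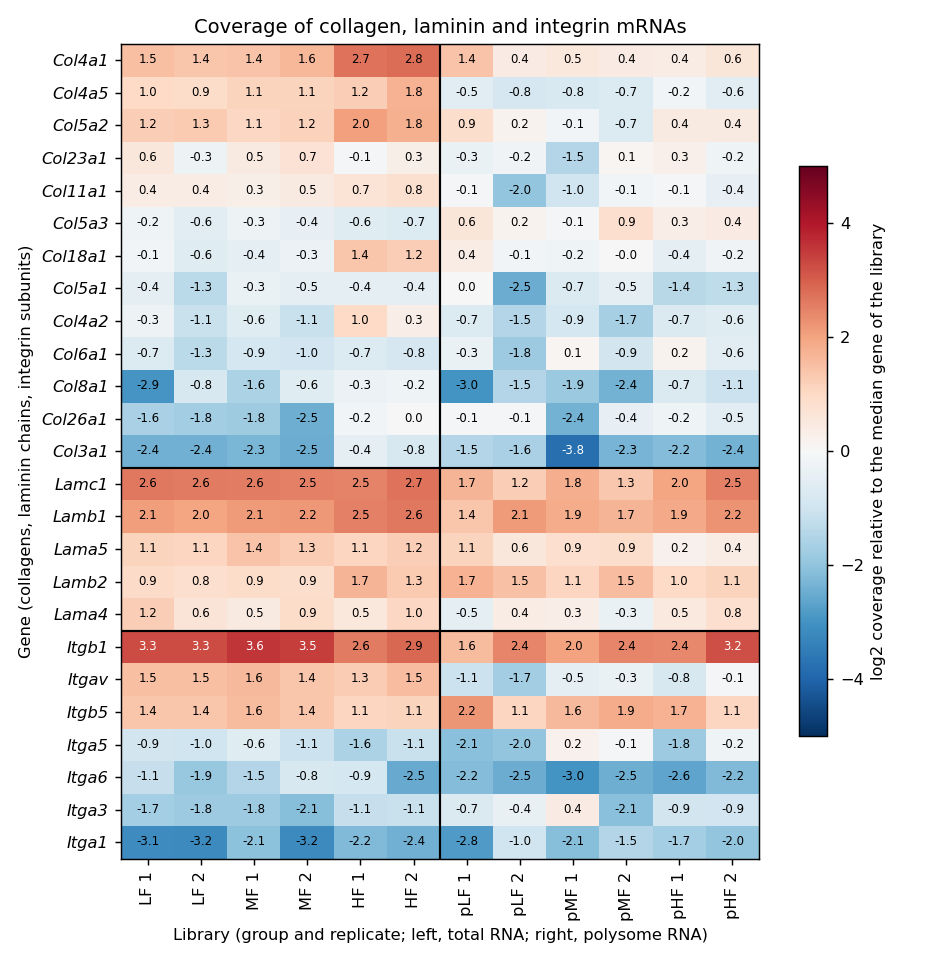
Log2 median coverage of the 25 tested genes relative to the median gene of each library (colour and printed value), by gene (vertical axis) and by library (horizontal axis, total RNA on the left and polysome RNA on the right). Itgb1 runs from 3.3 to 3.6 in LF and MF, and Itgav is above 0 in all libraries labelled total RNA and below 0 in all polysome libraries. Col18a1 and Col3a1 are higher in both libraries labelled HF than in LF and MF.

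The first comparison asked whether these mRNAs take the same share of polysome RNA, the mRNA held by more than 3 ribosomes, as of total RNA. In the 4 libraries of pLF and pMF against the 4 of LF and MF, 8 of the 25 genes fell and 1 rose, where 29.8% of all 7296 genes were called, 16.7% higher and 13% lower. The remaining 16 did not pass. With summed gene coverage in place of the median, 11 fell and 4 rose, where 4410 of all genes were called. The median difference was -0.37 on the log2 scale for the 25 genes, of which 9 were above 0, and 0.03 for all genes tested. By family it was -0.40 for the collagens, -0.37 for the laminin chains and -0.08 for the integrin subunits.

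Itgav fell most. Its log2 level relative to the median gene was 1.50 and 1.50 in LF and 1.64 and 1.40 in MF, against -1.09 and -1.74 in pLF and -0.48 and -0.33 in pMF. No polysome library reached any total RNA library, and the difference was -2.42 ± 0.25 (SE, 4 libraries each; limma, adjusted p = 0.000252), 5.35-fold lower. The direction depended on which cytosines were used. With only the cytosines within 1000 nt of the 3′ end the difference was 2.93 (adjusted p = 0.0710), and over the cytosines listed in all 12 libraries it was 0.99 (adjusted p = 3.16e-06), both in the opposite direction.

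The integrin Itgb1 had a log2 level of 3.27 to 3.59 in the 4 total RNA libraries and of 1.58, 2.43, 2.03 and 2.45 in the polysome libraries, with no overlap. It fell by 1.28 ± 0.24 on the log2 scale (limma, adjusted p = 0.00376). Summing the coverage of the gene in place of its median gave -0.27 (adjusted p = 0.273), which did not pass. Itga6, its partner in a laminin receptor, differed by -1.20 ± 0.39 (adjusted p = 0.0438).

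Of the laminin chains, Lamc1 fell by 1.06 ± 0.20 (adjusted p = 0.00369). Its log2 level was 2.52 to 2.63 in LF and MF and 1.70, 1.21, 1.83 and 1.33 in pLF and pMF. Lamb2, the β chain of synaptic and kidney basement membranes, was the only one of the 25 that rose, by 0.56 ± 0.19 (adjusted p = 0.0492), from between 0.83 and 0.95 to between 1.08 and 1.73. Over the cytosines listed in all 12 libraries Lamb2 was at -0.12 (adjusted p = 0.542), so its direction depends on which cytosines are used. Lama4, Lama5 and Lamb1 did not pass, with differences of -0.83 ± 0.29, -0.37 ± 0.19 and -0.32 ± 0.19.

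Of the collagens, Col4a5 fell by 1.75 ± 0.22 (adjusted p = 0.000622), from log2 levels of 0.92 to 1.13 to levels of -0.52, -0.85, -0.76 and -0.69. The fibrillar Col5a2 fell by 1.13 ± 0.23 (adjusted p = 0.00538) from 1.05 to 1.29 to levels of 0.86, 0.17, -0.12 and -0.70, again without overlap. Col11a1 differed by -1.17 ± 0.39 (adjusted p = 0.0477) and Col4a1 by -0.79 ± 0.23 (adjusted p = 0.0262). In Col4a1 the groups overlapped, since pLF replicate 1 was at 1.41 and LF replicate 2 at 1.39. Col26a1, Col5a3, Itga3 and Itga1 had positive differences of 0.75 to 1.17 that did not pass.

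Itgav, Col4a5, Itgb1, Lamc1 and Col5a2 passed with each of the 8 libraries left out in turn, and the other 4 did not. In other settings, Lamc1 did not pass with summed coverage as scale (-0.91, adjusted p = 0.0608) or within 1000 nt of the 3′ end (-1.22, adjusted p = 0.110), nor Col5a2 at 1.5 μM alone (-0.74, adjusted p = 0.154). Itga6 was lost in all 8 such fits, with adjusted p between 0.0582 and 0.140. Col11a1 passed only without pLF replicate 1 or pMF replicate 2, Col4a1 only without either pLF replicate, and Lamb2 only without pLF replicate 2 or pMF replicate 1, with values of -1.64 and -1.38, of -1.04 and -0.55, and of 0.63 and 0.68. Within each concentration alone, 4 of the 25 passed at 1.5 μM, all lower, where 13.5% of all genes were called, 8.16% higher and 5.32% lower, and 5 at 10 μM, all lower, where it was 12.6%, 7.43% and 5.21%. Whether the difference between polysome and total RNA itself differed between 1.5 and 10 μM was tested by limma. It called 0 of the 25 genes, where 1 of all 7296 was called. The lowest adjusted p of the 25 was 0.999. At an unadjusted p under 0.05 were 2 of them, a count given without that of all genes and so a description only.

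Other values moved with this comparison, and their part in it was not tested. The longest annotated transcript had a median of 5784 nt in the 25 genes and of 3351 nt in all genes tested. Over the 7296 genes, the difference between polysome and total RNA had a Spearman's rho of -0.36 with that length, a description across genes that share their libraries, and the 1563 genes of at least 5000 nt had a median difference of -0.45. Of the fibroblast and mural cell markers, Tagln was higher in polysome RNA by 1.90 and Pdgfrb by 1.03.

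**Figure D2:**
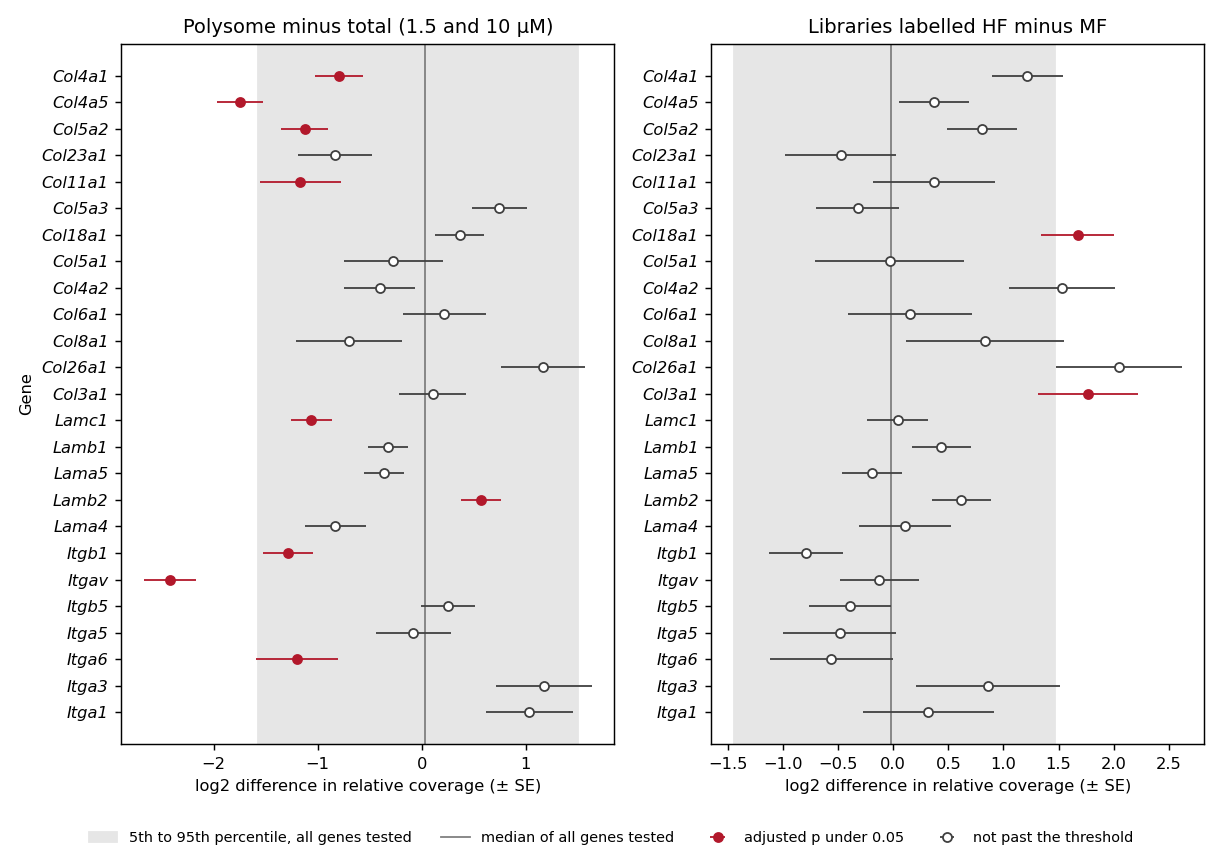
Difference in log2 relative coverage with its SE for the 25 genes (vertical axis), polysome minus total RNA at 1.5 and 10 μM on the left and libraries labelled HF minus MF on the right. Red points passed an adjusted p of 0.05, and the grey band holds the 5th to 95th percentile of all 7296 genes. On the left 9 genes passed, from Itgav at -2.42 to Lamb2 at 0.56, and on the right Col18a1 and Col3a1.

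The genes that act with collagens, laminins and integrins were compared in the same way. Of 19 genes of the integrin adhesion complex, which ties integrin tails to actin, all were tested, 7 fell and 0 rose, where 13% of all genes were called lower and 16.7% higher, with a median of -0.48 against 0.03 for all genes. The focal adhesion proteins Vcl, Lims1 and Fermt2 fell by 2.21, 1.81 and 1.48, and the actin linkers Flna, Tln1 and Actn1 by 0.98, 0.91 and 0.68, while Tns3 fell by 0.75. Of 15 basement membrane partners and other matrix receptors, 13 were tested, 4 fell and 1 rose, against the same 13% and 16.7% of all genes, with a median of -0.35. Those that fell were the heparan sulfate proteoglycan Agrn, by 1.53, fibronectin (Fn1), by 1.38, tenascin C (Tnc), by 1.14, and the laminin receptor dystroglycan (Dag1), by 1.11. The collagen-binding glycoprotein Sparc rose by 0.39.

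Of 26 genes whose products fold and process collagen and laminin, 18 were tested, 4 rose and 0 fell, where 16.7% of all genes were called higher and 13% lower. The median of the 18 was 0.45, and 13 of them were above 0. Among the 14 that did not pass, Timp3, Plod2 and Bmp1 were at -0.63, -0.50 and -0.33. Serpinh1, the collagen-specific chaperone of the endoplasmic reticulum, was higher by 1.82 ± 0.12 (limma, adjusted p = 2.81e-05). The prolyl hydroxylase subunit P4ha2, the lysyl hydroxylase Plod3 and the cross-linking enzyme Loxl1 were higher by 1.07, 1.01 and 0.72. These lists were set with earlier results of these data known, so their counts are a description.

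Polysome coverage was also unevenly spread along the mRNAs. For 15 of the 25 genes, and 3050 genes in all, coverage could be compared between the last 1000 nt of the longest transcript and the rest, as the log2 ratio of the 2 medians (near over far). Over the 15 genes its median was between -0.46 and 0.14 in the LF and MF libraries, -0.35 and -0.16 in those labelled HF, between 1.06 and 1.68 in pLF and pMF and 0.56 and 1.04 in pHF. Over all 3050 genes it was -0.34 to -0.27 in the libraries labelled total RNA and 0.03 to 0.24 in polysome RNA. For the 15 genes, all 6 polysome medians were above all 6 medians of the libraries labelled total RNA.

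The difference in this ratio between pLF and pMF and LF and MF passed for 6 of the 15 genes, all higher, where 26.2% of all genes were called, 20.6% higher and 5.61% lower. The median difference was 0.80 for the 15 genes. The ratio rose by 6.36 ± 0.93 for Itgav (limma, adjusted p = 0.00293), by 3.07 ± 0.55 for Itga5 (adjusted p = 0.00559) and by 2.57 ± 0.26 for Lama5 (adjusted p = 0.00120). It rose by 2.13 ± 0.27 for Itga3 and by 1.19 ± 0.21 for Lamb2. Lama4 also passed (1.78 ± 0.48, adjusted p = 0.0278), but only LF replicate 2 could be left out without losing it, which gave 2.05. The Itgav ratio of LF replicates was -4.02 and -3.56, and that of MF replicates -0.22 and -3.69. Among polysome libraries, pLF replicates had 3.65 and 1.79, pMF replicates 4.89 and 3.62 and pHF replicates 0.56 and 3.93. The libraries labelled HF, which are also labelled total RNA, were at 2.86 and 2.46, within the range of the polysome libraries. MF replicate 1 stood apart from the other LF and MF libraries. With a boundary at 2000 nt Itga5 was at 0.31 and did not pass.

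Lama5 had the longest transcript of the 25 genes, 11388 nt. Its ratio was -0.72, -0.71, -1.08 and -0.90 in LF and MF, -0.63 and -0.16 in the libraries labelled HF, 1.46, 1.90, 1.82 and 1.68 in pLF and pMF, and 2.15 and 1.43 in pHF. All 6 polysome libraries were above all 6 libraries labelled total RNA. In the last 500 nt, its median coverage was 653 to 826 reads in LF and MF and 1129 to 1282 in pLF and pMF. Between 8000 and 8500 nt from the 3′ end it was 1254 to 2509 reads in LF and MF and 98.0 to 161 in pLF and pMF.

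In Itgav, coverage between 500 and 1000 nt from the 3′ end was 1464 to 1799 reads in LF and MF and 1649 to 4548 in pLF and pMF, while between 3500 and 4000 nt it was 1959 to 2688 and 111 to 291. In the last 500 nt it was only 90 to 114 reads in LF and MF, over 18, 26, 4 and 46 listed cytosines. There, pLF replicate 2 and the pMF replicates had 60, 76 and 244 reads over 33, 7 and 11 cytosines. The near part of the Itgav ratio thus mixes thin and deep stretches, and how far its size rests on that mix was not tested. The libraries labelled HF shared the high 3′ peak, with 5754 and 6409 reads, and kept 745 and 804 reads further in. In Itgb1, coverage peaked between 1500 and 2000 nt in all groups, at 15483 to 17550 reads in LF and MF and 6193 to 12389 in pLF and pMF. Between 2500 and 3000 nt it was 6151 to 7038 in LF and MF and 139 to 591 in pLF and pMF. Col4a5 had fewer reads in polysome RNA both at 2000 to 2500 nt, with 325 to 729 against 1336 to 2403 reads, and at 5000 to 5500 nt, with 237 to 499 against 1877 to 2282 reads. Relative to the median gene of each library, the Itgb1 peak overlapped, at log2 levels of 4.80 to 4.92 in LF and MF and 4.17 to 4.93 in pLF and pMF, while its stretch between 2500 and 3000 nt did not, at 3.52 to 3.66 and -1.31 to 0.92. On that scale neither stretch of Col4a5 overlapped.

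**Figure D3:**
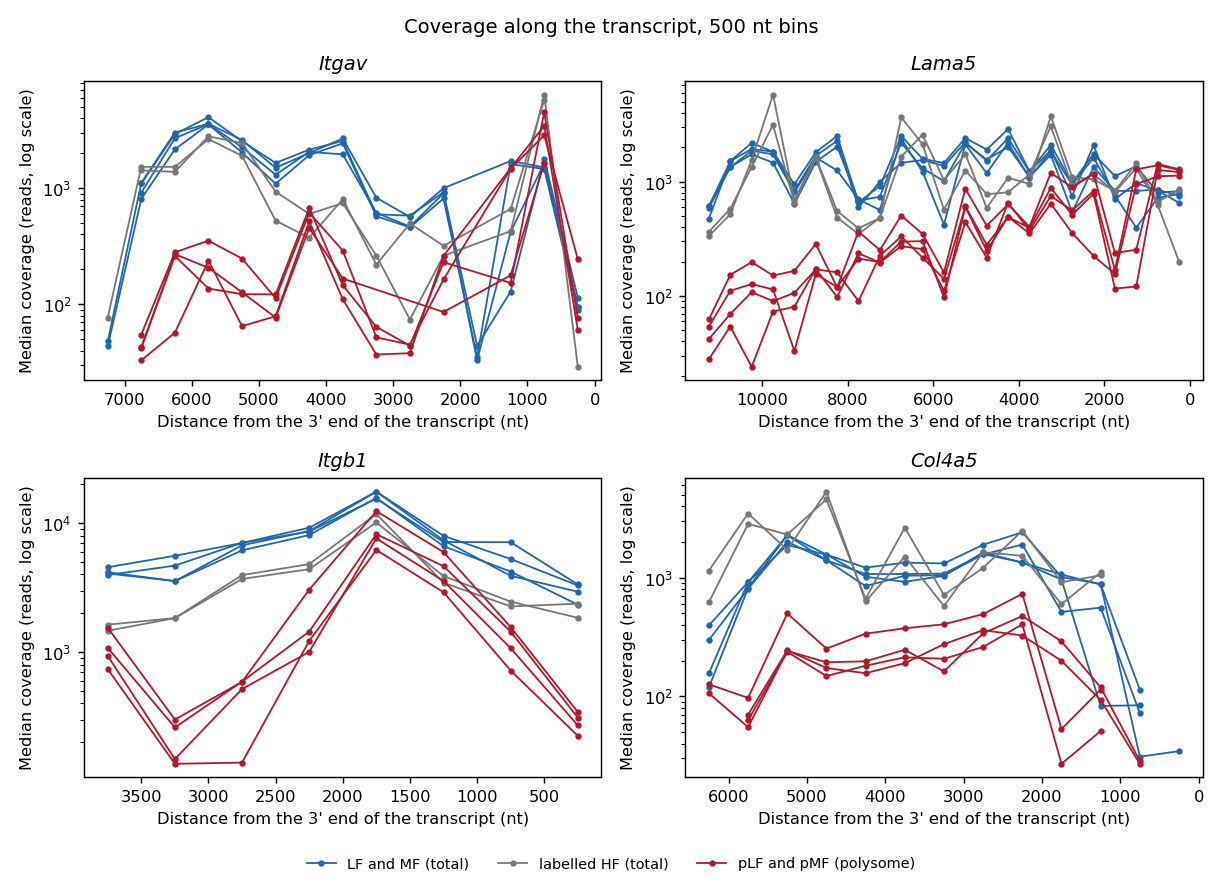
Median coverage in reads (vertical axis, log scale) in bins of 500 nt against the distance from the 3′ end of the longest annotated transcript (horizontal axis, nt) for Itgav, Lama5, Itgb1 and Col4a5, with 1 line per library (blue LF and MF, grey labelled HF, red pLF and pMF, pHF not drawn). In Lama5 the 4 polysome lines are above those of LF and MF in the last 500 nt and below them at 8000 to 8500 nt, and in Col4a5 they stay below those of LF and MF at 2000 to 2500 nt and at 5000 to 5500 nt.

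The next comparisons asked whether folic acid changed the coverage of these mRNAs. LF and the libraries labelled HF were both set against the same MF libraries, and pLF and pHF against the same pMF libraries. Between LF and MF, limma called 0 of the 25 genes, with 0 at an unadjusted p under 0.05, where 0% of all 7296 genes were called. The libraries of the 2 groups did not overlap in 9 of the 25 genes, where this held for 38.2% of all genes. The differences ranged from -0.81 in Col8a1 to 0.43 in Col26a1, with a median of -0.09 for the 25 genes and -0.01 for all genes. DESeq2 and edgeR also called 0. Itgb1 differed by -0.26 ± 0.34, Lamc1, Lamb1 and Lama5 by between -0.25 and 0.25, and Col4a1 and Col4a5 by less than 0.25 either way.

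In polysome RNA at 1.5 against 10 μM, 0 of the 25 genes passed by limma, where 0.151% of all genes were called, 0.0822% higher and 0.0685% lower, and DESeq2 called 1. At an unadjusted p under 0.05 there were 5. Calls over all genes by DESeq2, or at that unadjusted p in this and the next comparison, are not given here. Such counts are a description only. Itga5 was lower by 2.10 ± 0.51 (adjusted p = 0.239) and Itgav by 1.01 ± 0.36 (adjusted p = 0.476), while Col3a1 was higher by 1.51 ± 0.46 (adjusted p = 0.349). In pHF against pMF, 0 passed, where 0.0822% of all genes were called, and 2 had an unadjusted p under 0.05, Col5a2 at 0.84 ± 0.32 and Lamc1 at 0.68 ± 0.28. pHF replicate 2 is 1 of those libraries, and leaving out any library of either comparison also gave 0 calls.

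Between the libraries labelled HF and MF, 2 of the 25 genes passed, both of them collagens and both higher, where 6.51% of all genes were called, 3.65% higher and 2.86% lower. With summed gene coverage 8 were higher and 1 lower, where 1497 of all 7296 genes were called in either direction. DESeq2 called 5 of the 25 higher, where 1044 of all genes were called in either direction. With summed coverage as scale limma called 0, where 292 of all genes were called at the adjusted threshold. At an unadjusted p under 0.05 were 4 of the 25 in that setting, a count given without that of all genes and so a description only. Neither call held with any of the 4 libraries left out, and the smooth muscle actin Acta2 was higher in the same libraries by 2.85 (adjusted p = 0.00473). Col18a1, a basement membrane collagen whose end fragment is endostatin, had log2 levels of 1.39 and 1.24 against -0.45 and -0.27 in MF, 3.19-fold higher (1.67 ± 0.33, adjusted p = 0.0210). Col3a1 had -0.44 and -0.78 against -2.28 and -2.48, 3.41-fold higher (1.77 ± 0.46, adjusted p = 0.0484).

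The 2 chains of the main type IV trimer stood near the threshold. Col4a1 was at 2.71 and 2.79 against 1.42 and 1.65, a difference of 1.22 ± 0.32 (adjusted p = 0.0549), and Col4a2 differed by 1.53 ± 0.48 (adjusted p = 0.0951). Col26a1 had the largest difference, 2.05 ± 0.57 (adjusted p = 0.0660). The median was 0.81 for the 13 collagens, 0.11 for the laminin chains and -0.39 for the integrin subunits, against -0.02 for all genes. Itgb1 was at 2.60 and 2.87 against 3.59 and 3.47, lower by 0.80 ± 0.34 (adjusted p = 0.199).

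The libraries of the 2 groups did not overlap in 19 of the 25 genes, where this held for 61.1% of all genes. With 1 library left out, Col18a1 lay between 1.59 and 1.76 with adjusted p of 0.0681 to 0.166, and Col3a1 between 1.60 and 1.94 with adjusted p of 0.108 to 0.231. Acta2 was at 6.37 and 6.04 times the median gene against 0.667 to 1.11 in LF and MF, and its part in the collagen result was not tested. From separate RNA-seq of total mRNA, the study reported the opposite direction, with Acta2 and the collagen Col8a1 mildly decreased in HF. It also states that RT-qPCR bore out its differentially expressed genes. Here Col8a1 was higher by 0.84 ± 0.72 and did not pass (limma, adjusted p = 0.544). Pdgfrb differed by 1.14 and Tagln by 0.65, neither passing. Of the 13 basement membrane partners tested, 1 was called lower, Sparc by 1.16. Of the 19 adhesion complex genes it was 2, the kinases Ilk and Ptk2, by 0.83 and 1.16. In both lists 0 were called higher, where 2.86% of all genes were called lower and 3.65% higher. The folding and processing list had 0 calls by limma in this comparison. At an unadjusted p under 0.05 were 5 of its 18 genes, a count given without that of all genes and so a description only. No list had a call by limma in LF against MF, pLF against pMF or pHF against pMF.

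The second measure was the share of unconverted reads. Over the cytosines under a level of 0.05, that share in these mRNAs was 0.122% to 0.129% in LF and MF, 0.158% and 0.161% in the libraries labelled HF, 0.205% to 0.239% in pLF and pMF, and 0.210% and 0.138% in pHF. In all genes it was 0.138% to 0.147%, 0.186% and 0.192%, 0.176% to 0.191%, and 0.187% and 0.128%. The level results below are read with this background in view.

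A cytosine was called where 20 or more reads covered it and 6 or more of them, and no fewer than 0.1 of all, were unconverted. By these minimums, 150 cytosines in 33 of the 60 genes were called in 1 or more libraries. Of these, 61 lay in coding sequence, 53 in introns, 25 in the 3′ UTR, 9 in the 5′ UTR and 2 in non-coding exons. Called in both replicates of a group were 31, and 19 of those had no other called cytosine within 25 bases. LF libraries held 41 and 8 of the 150, MF libraries 3 and 4, those labelled HF 28 and 33, pLF libraries 18 and 25, pMF libraries 11 and 16 and pHF libraries 16 and 21. Per 10000 cytosines covered by 20 or more reads, LF libraries had 32.1 and 6.16, MF libraries 2.47 and 2.86, with 17.7 and 23.7 in those labelled HF, 14.4 to 28.5 in pLF and pMF, and 19.7 and 36.5 in pHF. All genes together had 11.1 to 15.1 per 10000 in LF and MF, 33.0 and 30.7 in those labelled HF, 13.8 to 30.3 in pLF and pMF, and 19.9 and 76.3 in pHF. Of the 21 in pHF replicate 2, 20 were called in no other library.

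In MF the only one called in both replicates was that of the Col23a1 3′ UTR at chr11:51582296, and in LF there was none. LF replicates had a level of 11.05% and 9.41%, MF replicates of 12.9% and 11.2%, and the libraries labelled HF of 16.3% and 9.41%. The Wilson 95% intervals, which cover counting error only, ran from 6.41% to 17.8% over the LF and MF libraries. Between LF and MF it did not pass by Fisher's exact test on the summed reads of both replicates, at 10.1% against 11.99% (two-sided, adjusted p = 0.830), where 0.76% of 1842 cytosines were called, 0.163% higher and 0.597% lower. In polysome RNA its coverage was only 20 to 51 reads and its level 41.0%, 5.88%, 15% and 6.90% in pLF and pMF, so that the groups overlapped (17.2% ± 16.4 against 11.1% ± 1.43, SD, n = 4 each; exact permutation test, two-sided, p = 0.771). The value of 41.0% in pLF replicate 1 alone set that mean, and without it polysome RNA was lower than total RNA by 1.88 percentage points.

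Single cytosines of Lama5, Col5a2 and Lamb2 had a higher unconverted share in pLF and pMF than in LF and MF. Among cytosines covered by 20 or more reads in each of the 8 libraries and a pooled level of at least 0.02, 20 lay in these mRNAs and 1308 in all genes. By limma on the log2 odds, 5 of the 20 were higher in polysome RNA and 0 were lower, where 32.4% of all were called, 30% higher and 2.45% lower. One of the 5, in Col4a5, met the minimum level only through the polysome libraries. Among those not called, Col18a1, Lama4 and Col4a1 also had LF and MF means under 0.02, at 1.30%, 1.51% and 1.89%. Going the other way, Col4a5 exon 30 had a mean of 1.84% in pLF and pMF. The pooled level counts polysome reads, so the shares called and the medians, of the 20 and of all, depend in part on that minimum. The median difference was 0.40 for the 20 and 0.65 for all 1308. Neither the share called nor the median of the 20 was above that of all cytosines. However, 8 of the 20 were neighbours within 22 bases of the Itgb5 5′ UTR, with differences of -0.23 to 0.34, none of them called. They are counted here as separate cytosines, so this comparison cannot decide how these mRNAs stand to all cytosines. The groups did not overlap, with all 4 polysome libraries higher, in 5 of the 20, that of Col4a5 among them, where this held for 29.3% of all.

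Col4a5 exon 33 was at 1.18%, 0.507%, 1.01% and 1.45% in LF and MF and at 4.24%, 5.21%, 3.56% and 8.94% in pLF and pMF (log2 odds 2.45 ± 0.41). Its levels in LF and MF were all under the minimum of 0.02, so it entered the test only through the polysome libraries and had to differ, and its call is no support. Lama5 exon 33 was at 3.55% to 4.02% in LF and MF and at 11.7%, 6.59%, 11.9% and 9.92% in pLF and pMF (1.51 ± 0.30, adjusted p = 0.00903). Both had their pLF and pMF values above all of their LF and MF values. The libraries labelled HF were at 2.75% and 2.63% for Col4a5, below its pLF and pMF values. For Lama5 they were at 7.39% and 5.54%, and the first of these was above pLF replicate 2.

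Col5a2 held a pair of such cytosines. In exon 45 the level was 5.82%, 3.39%, 3.77% and 3.49% in LF and MF and 8.54%, 10.6%, 9.63% and 10.8% in pLF and pMF. The mean rose from 4.12% ± 1.14 to 9.89% ± 1.03 (SD, n = 4 each; exact permutation test, two-sided, p = 0.0286, the smallest that 4 against 4 libraries can give). The libraries labelled HF were at 10.6% and 12.3%, on the side of the polysome libraries, and with them and pHF added the difference fell from 5.77 to 3.95 percentage points (6 against 6 libraries, exact permutation p = 0.0455). In exon 50 the libraries labelled HF were at 4.43% and 8.11%, the second as high as the highest pLF and pMF value. The level there was 2.93%, 2.40%, 2.90% and 0.473% in LF and MF against 5.99%, 8.10%, 6.34% and 7.06% in pLF and pMF (limma, log2 odds 1.91 ± 0.50, adjusted p = 0.0219). That call was lost without LF replicate 1 or 2, pLF replicate 2 or pMF replicate 2, with log2 odds of 1.98, 1.84, 1.79 and 1.87.

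Lamb2 exon 10 was at 2.30%, 4.04%, 2.67% and 2.77% in LF and MF and at 6.26%, 8.15%, 4.17% and 9.55% in pLF and pMF (1.29 ± 0.37, adjusted p = 0.0295). It passed only without LF replicate 2 or pMF replicate 1 among the 8 left out in turn, with log2 odds of 1.50 and 1.61. The coverage behind these 5 cytosines was 131 to 2206 reads per library. The remaining 15 included 8 of a cluster in the 5′ UTR of Itgb5, 2 more in Col4a5 and 1 each in Lama4, Col18a1, Col23a1, Col8a1 and Col4a1, with differences between -0.46 and 1.06.

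The Col6a2 cytosine at chr10:76607132 was the only isolated one called in both pMF libraries. It was unconverted in 9 of 18 and 5 of 15 reads in pLF, 6 of 32 and 14 of 36 in pMF and 8 of 27 in pHF replicate 1, and in 2 of 47 and 6 of 40 reads in the libraries labelled HF. It was not listed in LF, MF or pHF replicate 2, which can mean a low coverage or no unconverted read, and could not be tested. Between pLF and pMF, pHF and pMF, and pLF and LF no cytosine of these mRNAs could be tested by Fisher's exact test, where 9.68%, 9.1% and 65% of all cytosines were called. Of all cytosines, 8.66%, 6.69% and 60.4% were called higher and 1.02%, 2.42% and 4.58% lower. Between pMF and MF the only one was Col23a1, at 10.2% against 11.99% (adjusted p = 1), where 53.6% were called, 44.7% higher and 8.93% lower.

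**Figure D4:**
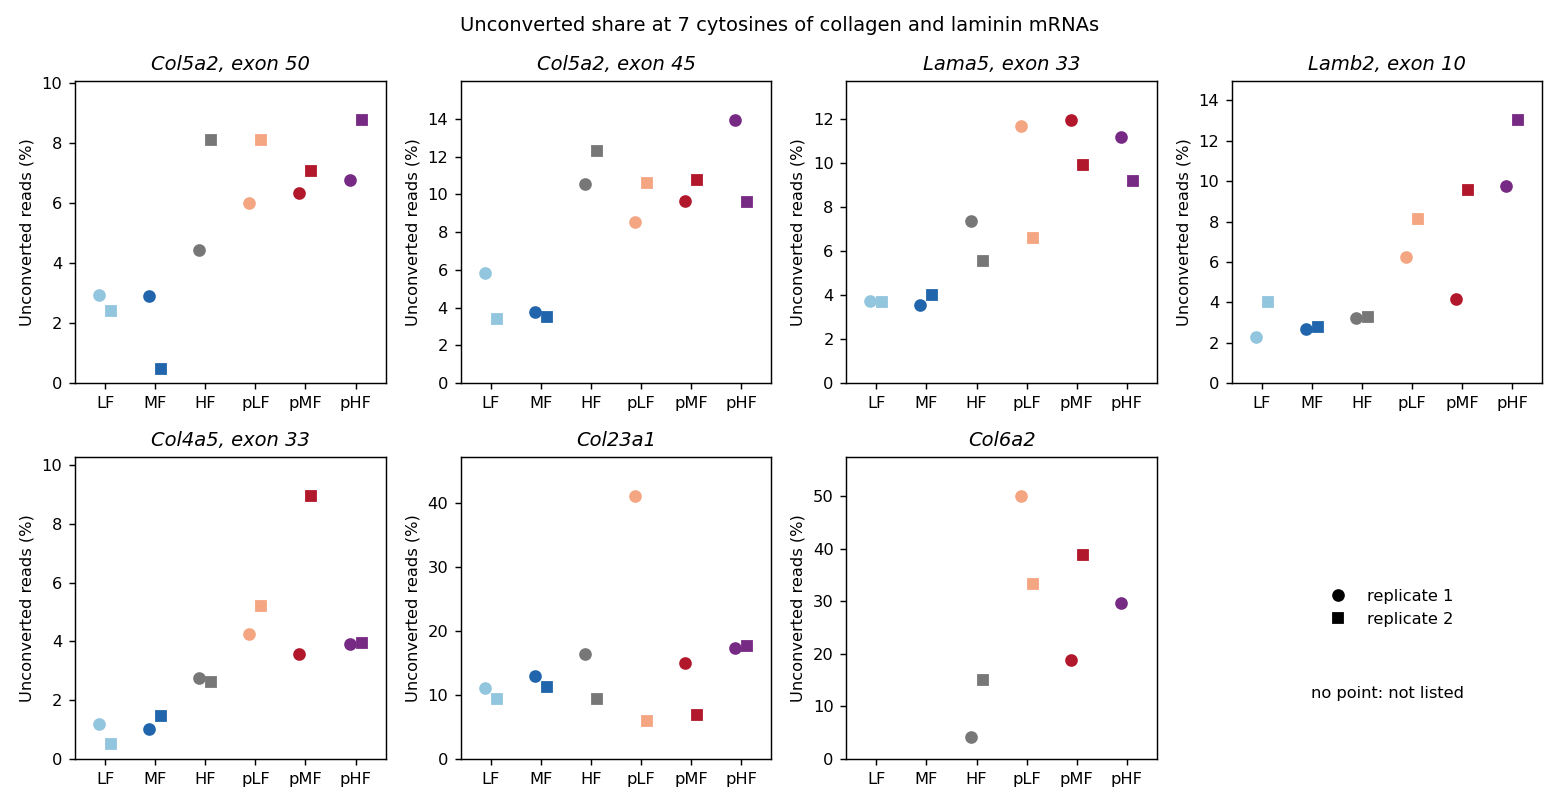
Unconverted reads in percent (vertical axis) at 7 cytosines of collagen and laminin mRNAs in the 6 groups (horizontal axis), with 1 point per replicate and no point where the cytosine was not listed. In the first 5 panels every pLF and pMF point is above every LF and MF point, and in the Col23a1 panel pLF replicate 1 stands alone at 41.0%.

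The bases after these cytosines were read on the mRNA strand. The sequence CTCCA, with the measured cytosine first, which is known as the sequence preferred by the m5C methyltransferase NSUN6, was present at 4 of the 20 cytosines, in Lama4, Col23a1, Col8a1 and Lama5. It was present at 4.66% of the 1308 and at 0.841% of the 112242 cytosines with the same coverage, of which 871 lay in these mRNAs. CNGG was present at 9 of the 20, or 45%, against 24.1% and 9.49%, and 8 of the 20 are neighbours in Itgb5. These are matches of letters only.

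In the libraries labelled HF, cytosines were called that were low or not listed in all other libraries. Both of these libraries called 17 cytosines in 14 of the genes, 10 in coding sequence and 6 in the 3′ UTR besides that of Col5a2 exon 45. Without the latter, the 16 had levels of 10.3% to 59.5% in the libraries labelled HF, at most 5.33% in any of the other 10 and at most 2.08% in LF and MF. Of the 16, 7 were listed in at least 1 LF or MF library and 4 in none of the other 10. The highest was in the 3′ UTR of Itga6 at chr2:71856025, with 22 of 37 and 19 of 40 unconverted reads. A deeper one was that of Col11a1 at chr3:114206370, with 161 of 486 and 142 of 408 reads, or 33.1% and 34.8%.

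Of the 17, 15 or 88.2% had GGG within the 5 bases before the cytosine, as in the sequences above. The same was true of 86.2% of the 2129 isolated cytosines of other genes called in both of these libraries, of 9.06% of all cytosines of these mRNAs with a coverage of at least 20 there, and of at most 2.44% of the isolated cytosines called in both libraries of any other group. The run of guanines is thus common to the calls of these libraries and not particular to matrix genes. Against MF, 4 cytosines could be tested by Fisher's exact test on pooled reads, and 3 passed, all higher, where 94.3% of 1138 were called, 82.9% higher and 11.4% lower. These 3 entered the test only because both libraries labelled HF called them, while neither MF library did, so that they had to be higher and their values are a description. They were Lama4 at chr10:39067859 with 12.3% against 0.369%, Lamc1 at chr1:153220787 with 10.8% against 0.605%, and Col5a2 exon 45 with 11.3% against 3.62%. Col23a1 differed by 1.00 percentage points (adjusted p = 0.801). The test pools reads over replicates and so holds no error between them.

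**Figure D5:**
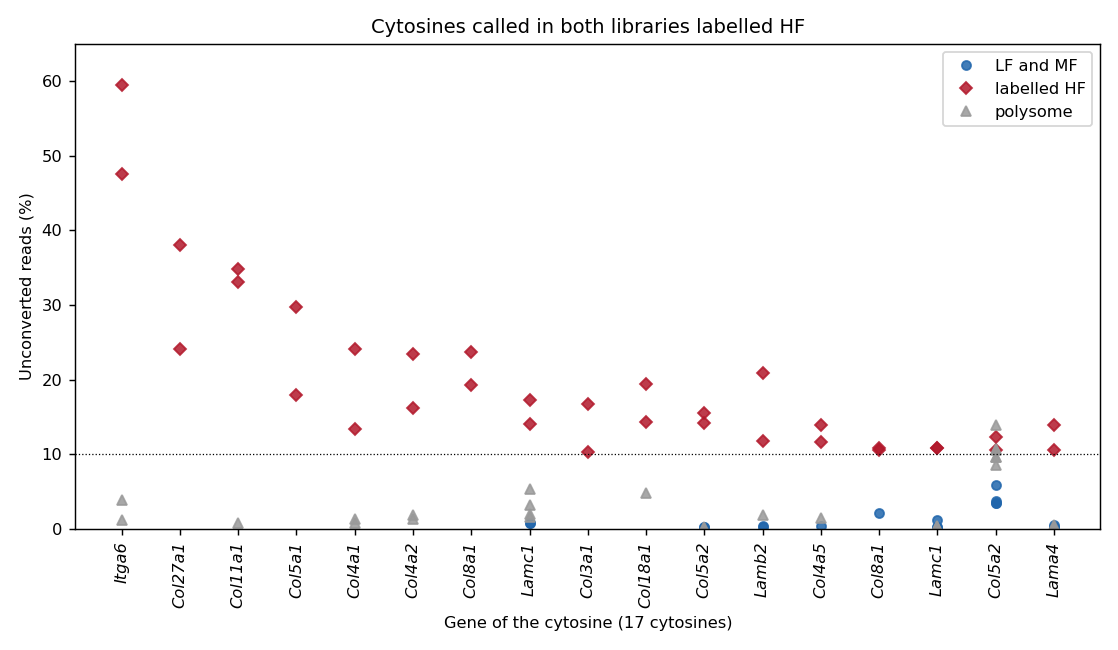
Unconverted reads in percent (vertical axis) at the 17 cytosines called in both libraries labelled HF, by gene (horizontal axis), with 1 point per library that listed the cytosine and a dotted line at a level of 10%. Apart from Col5a2 exon 45, where polysome libraries reach 13.9%, all points of the other 10 libraries are at 5.33% or less.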

How the data were processed

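Per the labels and methods, the authors used fastp for trimming, meRanGh for unique alignment to mm10 and meRanCall for calling cytosines; the submitters' processing notes also name R 4.1.1. The deposited counts are the reads that cover each cytosine and those left unconverted, with no scaling between libraries. The deposited level is a fraction, unconverted reads over all C and T reads, which the authors had not yet put through their 3C, signal/noise and RNAfold filters. Positions listed with a variant base were not used here. The coverage summed per library was 1186213013 to 2857966129. A cytosine is listed only with an unconverted read, so thinly covered positions drop out more often, which can raise a gene's median where it is low.

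The genes, lists and tests were chosen with earlier results of these data known. Named were genes that passed a test, the 3 of highest coverage in MF per family, and genes with an isolated cytosine called in both replicates of a group; other members were named after their values were seen. Coverage was tested with limma 3.58.1 in R 4.3.3 on all genes with at least 10 cytosines in each of 12 libraries, in 1 fit of 6 group means, with Benjamini-Hochberg adjustment over all genes tested and a threshold of 0.05. Coverage per cytosine is not a count of independent reads, so edgeR 4.0.16 and DESeq2 1.42.0 on the rounded medians were alternatives. Levels were tested by Fisher's exact test and exact permutation (scipy 1.17.1, Python 3.11.15) and by limma on the log2 odds with a pseudocount of 0.5. The 3′ ratio and the level test across polysome and total RNA were added after seeing the data. The scripts were tested on simulated data. Other lists covered basement membrane partners, the integrin adhesion complex, folding and processing, and cell type markers. Same-numbered replicates did not deviate together (r of -0.05 to 0.04 over 7296 genes), so no pairing was used.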

Additional observations from a re-analysis of the deposited data

How the results depend on the processing

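For the coverage of single genes, 190 of 269 alternative values kept direction and call, 76 lost the call and 3 reversed; for the 3′ ratio 59 of 69 kept both and 10 lost the call, and for single cytosines 70 of 80 and 10. The 3 reversals were polysome minus total of Itgav (0.99) and Lamb2 (-0.12) over cytosines listed in all 12 libraries and of Itgav (2.93) within 1000 nt of the 3′ end; the Col23a1 difference turned to -1.88 without pLF replicate 1. The causes were not tested. The 2 calls of the libraries labelled HF against MF became 4 with quantile normalization, 0 with summed coverage as scale, 4 over cytosines listed in all 12 libraries, 1 over all listed cytosines, 9 with summed gene coverage, 5 with DESeq2, 1 within and 4 beyond 1000 nt of the 3′ end, and 0 with any library left out. The 9 calls of polysome against total became 15 with summed gene coverage, 4 at 1.5 μM and 5 at 10 μM alone, 7 in a fit without the libraries labelled HF, and 5 to 9 with a library left out (5 without any of LF replicate 1 or 2 or MF replicate 1 or 2). pLF against pMF went from 0 to 1 with DESeq2. Where the calls over all genes under a setting are not given, these counts may only follow them. Such counts describe the setting and are no result about these mRNAs.

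At single cytosines, the 3 calls of the libraries labelled HF against MF became 0 at a level of 0.2 and 3 to 5 with a library left out. With a library left out, 0 to 1 were called for pLF against pMF, 1 to 3 for pHF against pMF, 0 to 8 for pLF against LF (8 without LF replicate 1) and 0 to 2 for pMF against MF, since a cytosine then had to be called in the remaining library only. The 5 calls of polysome against total became 2 at a pooled level of 0.05 and 3 to 5 with a library left out, and the 6 calls of the 3′ ratio 5 to 7. The Col5a2 exon 45 difference stayed between 5.48 and 6.33 percentage points, at a p of 0.0571, the smallest that 4 against 3 libraries allow in the exact permutation test, and Col23a1 between -1.88 and 9.83. With the replicate number as a block, polysome against total had 6 calls, the libraries labelled HF against MF 1, the 3′ ratio 6 and the polysome levels 5; the block moved no other count by over 1.5 times. The fits by 3′ distance, those without the libraries labelled HF and the alternatives of the 3′ ratio and polysome levels were chosen after seeing the data. Depth limits what was tested, since 35 of the 60 genes fell under the minimum and a cytosine without an unconverted read is not listed. That minimum held for every library. Genes scarcely listed in polysome RNA, such as Itgb8, or in LF and MF, such as Lama1, were therefore not compared.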

Other observations

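Several runs of neighbouring cytosines made up most of the remaining calls. An intron of Lama1, chr17:67741374-67741513, held 40 cytosines at a median level of 100% in LF replicate 1, where they were 40 of its 41 calls; they were listed at 100% in MF replicates 1 and 2 too, at a median coverage of 16 and 16.5 reads, under the minimum of 20. The sequence around one of them (chr17:67741466-67741486, plus strand) shows the repeat of CCCTAA that also forms chromosome ends.
Lama1 intron: ctatccctaaCcctaacccta
An intron of Col12a1, chr9:79695127-79695178, held 12 cytosines with a median level of 98.6% to 100% in all 6 polysome libraries and in the library labelled HF replicate 2, and was listed in none of the other 5. Its sequence on the mRNA strand (chr9:79695150-79695170, minus strand) is a run of pyrimidines.
Col12a1 intron: ccatctctttCtttctctctt
In the 3′ UTR of Itgb1, chr8:128732829-128732962, 10 cytosines were called in pLF replicate 2 alone, at a median level of 31.7% and a median coverage of 21.0 reads. In the 5′ UTR of Itgb5, chr16:33829836-33829857, 8 cytosines were called in LF replicate 2, at a median of 11.7%, 3 in MF replicate 2 and 4 in pMF replicate 1, and the other LF and MF libraries had medians of 4.51% and 4.71%. Polysome libraries lay between 4.56% and 9.66%, so the groups overlapped.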
